A study of Mus musculus with 87 samples.

Results

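The Notch pathway was followed here through 30 genes (4 receptors, 5 ligands, 3 Fringe enzymes, 3 cleavage genes, 4 genes of the nuclear complex, 9 Hes, Hey and Nrarp genes and 2 Numb genes), chosen by symbol and matched by Ensembl identifier among 43346 genes. The rule reads symbols and no measured value, and all 30 members were found in each of the 64 RNA-seq libraries. The study removed boundaries between topologically associating domains (TADs, the blocks of chromatin within which enhancers and promoters mostly meet) with CRISPR/Cas9 in FVB mice, and kept 1 line per boundary. RNA was taken from dissected tissues of homozygous embryos and of wild-type littermates at E11.5. From line B2 came 6 homozygous and 6 wild-type lungs and 4 and 4 hearts. Lines B3 and B5 gave face and heart, B4 gave gut and midbrain, B8 gave forebrain and neural tube, and B6 and B7 gave face, each with 2 homozygous and 2 wild-type libraries. B6 and B7 also gave 2 homozygous hearts each, for which the controls were the 8 wild-type hearts that came from lines B2, B3 and B5, and there the effects of line and of genotype cannot be told apart. Every embryo was otherwise untreated, and each line is 1 founder deletion, so what belongs to the deletion and what belongs to the line cannot be told apart beyond the littermate controls. In all, 8 members lie on a chromosome that carries a deletion, none within 1 Mb of it, and the smallest distance is 20.5 Mb.

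Notch receptors are single-pass proteins that are bound by Delta-like and Jagged ligands on a neighbouring cell. Fringe enzymes add sugars to the receptor and thereby change which ligand it answers to. After binding, Adam10 cuts the receptor outside the membrane and gamma-secretase, with presenilin and nicastrin, cuts it within the membrane, and the freed intracellular domain joins Rbpj and a Mastermind protein on DNA to turn on Hes and Hey repressors and Nrarp, which limits the signal. In the embryonic nervous system the pathway is known for holding progenitors back from becoming neurons, in the heart for valve and trabecular development and in vessels for arterial identity.

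The promoters of 3 targets are shown, those with an entry among 6 direct targets looked up (Hes1, Hes5, Hey1, Hey2, Heyl and Nrarp). Of the 3 shown, Hes5 and Nrarp were highest in the brain and Hey2 was highest in the heart. Each promoter is the 250 bases before the start of the gene, from RefSeq on GRCm38.p6. Capitals mark TGGGAA or its reverse complement TTCCCA, the core of the motif that Rbpj binds. The windows are chr4:154960673-154960922 (plus strand) for Hes5, chr10:30842784-30843033 (minus strand) for Hey2 and chr2:25180508-25180757 (plus strand) for Nrarp.
Hes5: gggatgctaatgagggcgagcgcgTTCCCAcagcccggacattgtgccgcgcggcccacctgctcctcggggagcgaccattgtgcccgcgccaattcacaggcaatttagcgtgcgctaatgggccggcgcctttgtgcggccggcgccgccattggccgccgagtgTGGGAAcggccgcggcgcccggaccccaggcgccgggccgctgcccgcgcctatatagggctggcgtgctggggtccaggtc
Hey2: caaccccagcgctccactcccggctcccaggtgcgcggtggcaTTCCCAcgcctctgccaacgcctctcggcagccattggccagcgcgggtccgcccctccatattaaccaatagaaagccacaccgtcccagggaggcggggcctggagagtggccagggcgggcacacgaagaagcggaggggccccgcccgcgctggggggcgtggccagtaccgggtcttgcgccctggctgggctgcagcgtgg
Nrarp: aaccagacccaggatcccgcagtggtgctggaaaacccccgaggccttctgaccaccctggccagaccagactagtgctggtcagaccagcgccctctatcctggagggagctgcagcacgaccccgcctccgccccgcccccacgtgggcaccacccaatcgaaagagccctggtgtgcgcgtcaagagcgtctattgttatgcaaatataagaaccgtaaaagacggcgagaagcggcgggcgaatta
The Hes5 window holds a copy on each strand, 226 and 82 bases before the start, the Hey2 window holds 1 copy 207 bases before the start, and the Nrarp window holds none. Copies of these letters cannot overlap. In all, 7094 of 32851 promoters of this length (21.6%) hold at least 1 copy, as do 6 of the 25 members with an entry, which besides Hes5 and Hey2 are Lfng, Rbpj, Maml3 and Hes7. No entry was found for Mfng, Hes1, Hes3, Hey1 and Heyl. A match describes the letters and does not show binding.

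The libraries held 8391553 to 31793440 counts. A level below is a count scaled by edgeR's trimmed mean of M-values (TMM), per kilobase of the gene's effective length and per 1000000 counts, so that levels can be compared between genes as well as libraries. The tissue labels were checked against summed levels of marker genes. Forebrain, midbrain, neural tube, heart and lung markers were highest in the libraries so labelled, and the sum of 4 gut markers overlapped between gut (65.3 to 96.3) and face (63.1 to 132), while the intestinal factor Cdx2 alone was at 0.878 to 3.72 in the guts. All 4 guts also carried liver markers (Alb, Afp and others, summed level 2980 to 4690). Other libraries stood apart from their tissue. The B5 homozygous heart A21 carried a neuronal marker sum of 230 (other hearts 5.7 to 20.3) and a cardiomyocyte sum of 3930 (others at least 7050), and lay above all other hearts for 13 members and below them for 4. In it Xist stood at 156 and the Y-linked Ddx3y at 24.1 counts per 1000000 counts, and no other library had both above 10. The B4 homozygous midbrain A39 carried a forebrain marker sum of 172 (other midbrains 48.6 to 55.9) and lay above the other midbrains for 7 members and below for 16. Among only 4 midbrains any library is the highest or lowest for some members, and the same counts were not worked out over all genes. The B2 wild-type lungs E5420-07 and E5420-09 differed from the other 10 lungs. E5420-07 lay above every other lung, E5420-09 included, for 20 members and below for 3. The share of counts from mitochondrial genes was 0.362% in E5420-07 and 1.543% in E5420-09, below the 11.305% to 14.048% of the remaining lungs, and the 10 highest genes of E5420-09 held 90.1% of its counts. The forebrain A29 had a neuronal marker sum of 381, against 655 to 769 in the other forebrains. The B2 homozygous heart A58 carried a liver marker sum of 883 (other hearts at most 120), a face mesenchyme sum of 57.7 and an epithelial sum of 205. It was the lowest heart for Hey1 (9.77) and Heyl (1.76). The genotype labels themselves were not checked by expression. The paper states that the deletions spared the protein-coding genes nearby.

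Across the 7 tissues, the members differed in where they were highest. On the level scale 16 of 30 members had their highest median in forebrain, midbrain or neural tube, 8 in heart, 4 in lung, 2 in face and none in gut. For 9 members (Notch2, Dll3, Ncstn, Maml3, Hes3, Hes5, Hey2, Heyl and Nrarp) every library of the highest tissue lay above every library of the other tissues. The highest tissue was the same for 30 of 30 members with DESeq2's size factors in place of TMM and for 16 of 30 with the deposited TPM, on which only 2 members were highest in heart and 1 in lung. The same counts were not worked out over all genes, so they do not set the pathway apart from other genes. Tissues other than those compared within a line came from different lines, so these levels are a description with no test. In bulk tissue, fewer cells of a type and less RNA per cell cannot be told apart.

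**Figure D1:**
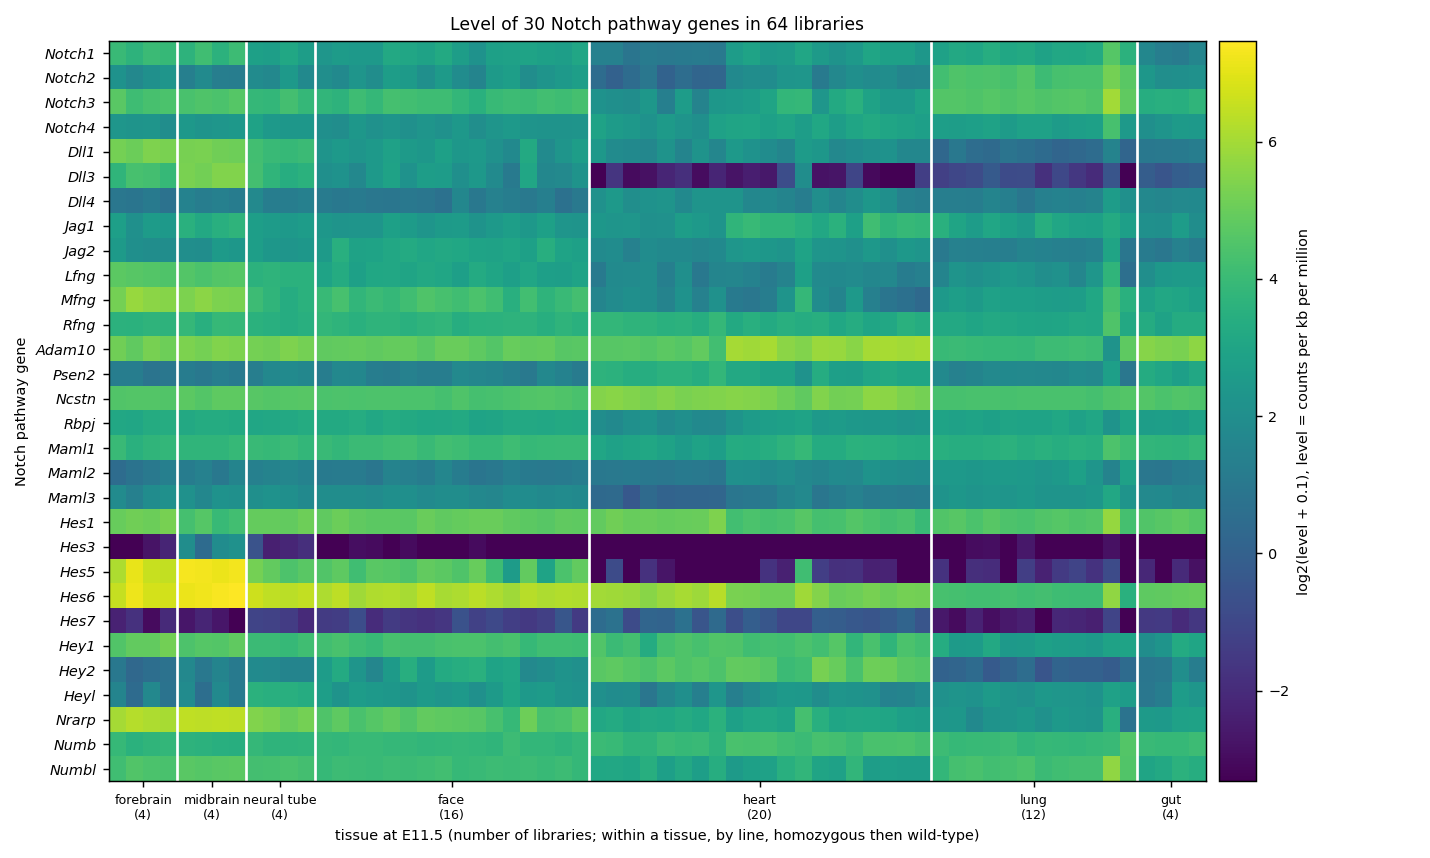
Level of each of the 30 members (rows, by role) in each of the 64 libraries (columns, by tissue), coloured as log2 of the level plus 0.1. Hes5, Dll3 and Nrarp are brightest in midbrain, Hey2 in heart and Notch2 in lung, and the heart A21 and the lung E5420-07 stand out as single columns.

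The receptors differed in where they were highest. Notch1 had its lowest, median and highest levels at 12.5, 15.5 and 16.3 in forebrain and 12.2, 14.7 and 17.8 in midbrain, which overlapped, and at 2.17, 2.62 and 3.09 in gut. Notch2, a receptor with broad embryonic roles, stood at 17, 20.8 and 37.5 in lung against a highest single level of 6.61 in any other tissue (face). The lung therefore stood clear of the rest for Notch2, also without E5420-07 and E5420-09 (17 to 23.5). Notch3, known from vascular smooth muscle, had medians of 23.8 in lung, 21.7 in midbrain and 20.5 in forebrain, and these ranges overlapped. Its highest tissue was midbrain on the TPM scale. Notch4, an endothelial receptor, was between 3.84 and 9.36 in all libraries other than E5420-07 (20.2), with the highest median in heart (7.08) on this scale and in midbrain on the TPM scale.

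Among the ligands Dll1 and Dll3 had their highest medians in the brain and Jag2 in face. Dll1, a ligand of newly formed neurons, was at 33.3 to 41.4 in forebrain, 34.2 to 39.4 in midbrain, 14.9 to 18.5 in neural tube and at most 9.2 elsewhere. Dll3, a ligand-like protein that acts within the same cell, was at 36.4 to 43.2 in midbrain and 13.4 to 19.7 in forebrain. Those ranges did not overlap, and in hearts other than A21 (3.77) Dll3 did not exceed 0.478. Dll4, the endothelial tip-cell ligand, had medians between 1.79 (forebrain) and 3.89 (heart), with ranges that overlapped between heart and gut. Jag1 had medians of 11.3 in midbrain and 9.92 in heart, where single libraries ran from 4.2 to 17.6. Jag2 was highest in face (median 7.86, range 5.71 to 11.1) and overlapped there with neural tube (4.83 to 6.53).

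Lfng and Mfng, which modify the receptor, had their highest medians in forebrain and midbrain. Lfng had medians of 24.5 in forebrain and 23.9 in midbrain and 3.01 in heart. Mfng had medians of 46.6, 40.7 and 2.86 in the same tissues, and of 17.7 in face and 12.5 in neural tube. Rfng varied least of the Fringe genes, with medians between 8.85 (lung) and 14.4 (midbrain). The cleavage genes ran the other way on this scale, with the highest medians in heart: 46.9 for Adam10, 9.17 for Psen2 and 42.2 for Ncstn. Heart and gut overlapped for Psen2 (4.46 to 14.2 and 6.76 to 9.88) and for Adam10 (18.1 to 67.4 and 39.2 to 49.6). On the TPM scale Adam10 and Ncstn were highest in midbrain and Psen2 in gut. Rbpj, the DNA-binding partner of the Notch intracellular domain, had medians of 4.98 (heart) to 9.45 (midbrain). Among its co-activators Maml1 had medians of 9.79 to 16, Maml2 was highest in lung (5.58) and Maml3 had medians of 1.85 in heart and 4.8 in lung. On the TPM scale Maml2 was highest in neural tube and Maml3 in midbrain.

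Hes5, the repressor that marks Notch-active neural progenitors, reached 159 and 156 in the homozygous midbrains and 142 and 153 in the wild-type ones. It stood at 70.8 to 137 in forebrain, 21.9 to 36.7 in neural tube and 5.99 to 31.3 in face, and at no more than 0.456 in any lung, gut or heart other than A21 (17.7). The brain libraries were thus highest, in the order midbrain, forebrain, then neural tube and face, which overlapped. Hes3 was at 3.77 and 1.25 in the homozygous midbrains (A39 the lower) and 3.73 and 4.34 in the wild-type ones, and at most 0.584 elsewhere. It had no count in any of the 20 hearts and 4 guts. Hes6, which is expressed in differentiating neurons and muscle, ranged from 143 to 177 in midbrain and overlapped with forebrain (91.4 to 148). Nrarp was at 84.5 to 87.1 in midbrain, 64 to 76.6 in forebrain and 5.67 to 7.3 in gut.

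The Hey genes divided between tissues. Hey2, a repressor of the ventricular myocardium and of arteries, had lowest, median and highest levels of 16.4, 25.7 and 38.6 in heart, and face came next at 3 to 11.4. Hey1 had its highest median in forebrain (28.9), overlapping with midbrain (22.1 to 28.5) and single hearts (up to 24.3). Heyl was highest in neural tube, at 11.9 and 11.1 in the homozygous and 11.2 and 10.1 in the wild-type libraries, above the highest face (8.08). Hes1 was present in every tissue, with medians of 18.7 (midbrain) to 34.2 (forebrain), and Hes7, the oscillating repressor of the presomitic mesoderm, never exceeded 1.6. Numb, which promotes removal of Notch from the cell surface, had medians of 11.6 to 17.1, and its relative Numbl had medians of 7.49 in heart and 25.8 in midbrain. Exons of Notch1, Notch3, Dll1, Dll4, Ncstn, Maml1, Hes5, Hes7, Nrarp and Numb overlap a gene on the other strand, and without a stated strand setting reads from the pair cannot be told apart.

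**Figure D2:**
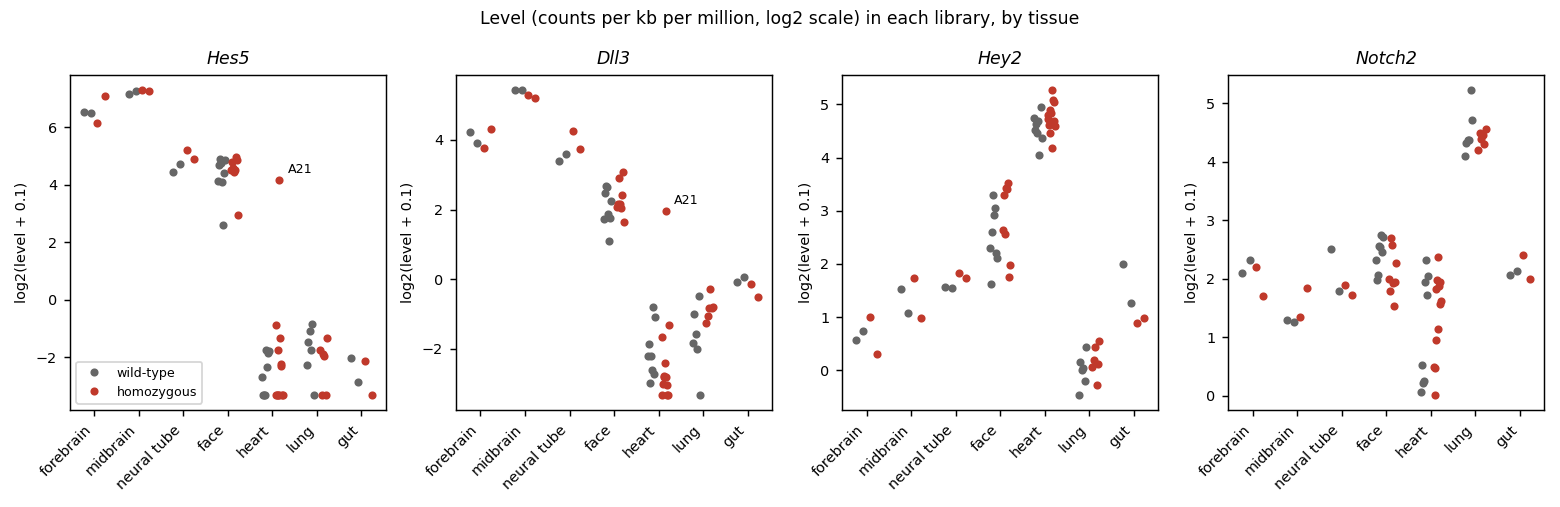
Level of Hes5, Dll3, Hey2 and Notch2 in each of the 64 libraries, by tissue, on the level scale defined above. The heart A21 lies at 17.7 for Hes5 and 3.77 for Dll3, far from the other 19 hearts, and Notch2 is highest in lung and Hey2 in heart.

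Hearts of B2 differed from those of the other lines in several members. Notch1 was at 1.72 to 2.6 in the 8 B2 hearts and 4.54 to 8.3 in the 12 others. Adam10 was at 18.1 to 28.9 against 43.3 to 67.4, and Hes1 at 28.9 to 41.3 against 15.7 to 25.4. The wild-type B2 hearts had cardiomyocyte marker sums of 21400 to 23900, against 7050 to 10600 in the wild-type hearts of B3 and B5. The homozygous B2 hearts were at 20800 (A53), 21600 (A54), 19800 (A57) and 12000 (A58). Homozygous hearts of the other lines were at 11300 to 12700, apart from A21 (3930). Line, library set and dissection cannot be told apart for these values, and the part of the markers in them was not tested. How many of all genes differ between these hearts in the same way was not worked out.

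Within-line comparisons of tissues asked how far the pathway differs between organs of the same stage. They were tested with edgeR's quasi-likelihood test (adjusted p after Benjamini-Hochberg over all genes tested, called under 0.05), with genotype in the model. Between lung and heart of B2, Notch receptors were higher in lung and several targets lower. Of 28 members tested, 14 were higher in lung (41.7% of all genes were) and 12 were lower (38.9%), and the median log2 fold change was 0.279 over the members and 0.06 over all genes. All 4 receptors were among those higher. Notch2 had lowest, median and highest levels of 0.907, 1.19 and 1.83 in the B2 hearts and 17, 20.8 and 37.5 in the lungs, with no overlap. It was 18.3-fold higher in lung (log2 4.2, 95% interval 3.85 to 4.54, adjusted p 1.89e-15). Notch3 (log2 2.67), Maml3 (2.29), Notch1 (2.24), Dll3 (2.07) and Maml2 (1.49) were also higher in lung, and of these only Dll3 overlapped between the tissues, at 0 to 0.217 in heart and 0 to 0.723 in lung.

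Hey2 was the member most reduced in lung. Its 8 hearts ran from 21.8 to 27.7 and its 12 lungs from 0.625 to 1.36, which did not overlap (log2 -4.67, interval -4.91 to -4.43, adjusted p 7.71e-19). Hes7 (-3.53), Psen2 (-1.78), Hes6 (-1.56), Hey1 (-1.48) and Dll1 (-1.36) were lower too. Hes6 and Hey1 overlapped between tissues, Hes6 only through E5420-07 (51.4) among the lungs. Without E5420-07 and E5420-09 the values were 4.09 for Notch2 and -4.63 for Hey2. The lungs and hearts carry different kinds of library names, so library set and tissue cannot be told apart in B2. Mitochondrial genes held 1.86% to 3.14% of counts in these hearts and the 10 highest genes 7.58% to 10.5%, against 11.305% to 14.048% and 22.8% to 28.6% in the lungs other than E5420-07 and E5420-09, and the part of this in the differences was not tested.

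Between face and heart, compared in both B3 and B5, the 3 Fringe genes and Nrarp were higher in face and the 3 cleavage genes lower. In B3, 15 of 29 members tested were higher in face (35.5% of all genes) and 9 lower (34.1%), with median log2 fold changes of 0.361 over members and 0.029 over all genes. In B5, 14 of 29 were higher (20.4%) and 9 lower (26.2%), with medians of 0.492 and 0.017. Of the called members 20 were shared, all in the same direction, which is 83.3% of those called in B3 and 87% of those called in B5. The lines share no library, and no member was called in opposite directions.

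Hes5 showed the largest face to heart difference. In B3 its levels were 27.4 and 22.9 in homozygous faces, 17.6 and 25.8 in wild-type faces, 0 in both homozygous hearts and 0.196 and 0.0964 in wild-type hearts. All faces lay above all hearts (log2 8.19, interval 7.24 to 9.14, adjusted p 1.07e-06). Dll3 (log2 4.7), Mfng (2.65), Lfng (1.68), Nrarp (1.62) and Numbl (1.09) were also higher in the B3 face. Jag1 was at 4.73, 5.12, 4.9 and 4.86 in the B3 faces and 13.2, 15.4, 13.2 and 13.3 in the hearts, again with no overlap (log2 -1.46, interval -1.62 to -1.31, adjusted p 6.63e-07). Hey2 (-2.11), Psen2 (-1.56), Adam10 (-1.01), Maml2 (-0.92) and Ncstn (-0.89) were lower in face as well.

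In B5 the heart A21 moved several of these values. Hes5 was at 24.2, 21.7, 29.7 and 27.1 in the faces and 17.7 (A21), 0.297, 0.179 and 0.193 in the hearts. Faces still lay above all hearts, but the log2 difference of 3.51 (interval 0.09 to 6.94) was not called, and without A21 it was 6.81 (interval 6.3 to 7.32, adjusted p 6.44e-08). Dll3 was likewise not called with A21 (log2 3.03) and was called without it (5.26). Mfng (log2 1.58, or 2.24 without A21), Nrarp (1.25, or 1.52), Lfng (0.99, or 1.28), Notch3 (0.85, or 1.16), Hes6 (0.82, or 0.99) and Jag2 (0.76, or 0.92) were higher in the B5 face. Hey2 (-1.74, or -1.93 without A21), Hes7 (-1.61, or -1.86), Psen2 (-1.6, or -1.8), Dll4 (-0.9, or -1.07), Ncstn (-0.8, or -0.93) and Adam10 (-0.76, or -0.85) were lower. The number called higher was 17 without A21 and between 6 and 8 without A17, A18, A19, A20, A23 or A24 in turn. The face to heart difference itself was then compared between B5 and B3. No member was called by edgeR (0.531% of all genes were), and 5 had an unadjusted p under 0.05. The smallest adjusted p was 0.0705 for Maml2 (0.64 higher in B5 on the log2 scale), and Jag1 (0.76) and Notch1 (0.67) came next.

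**Figure D3:**
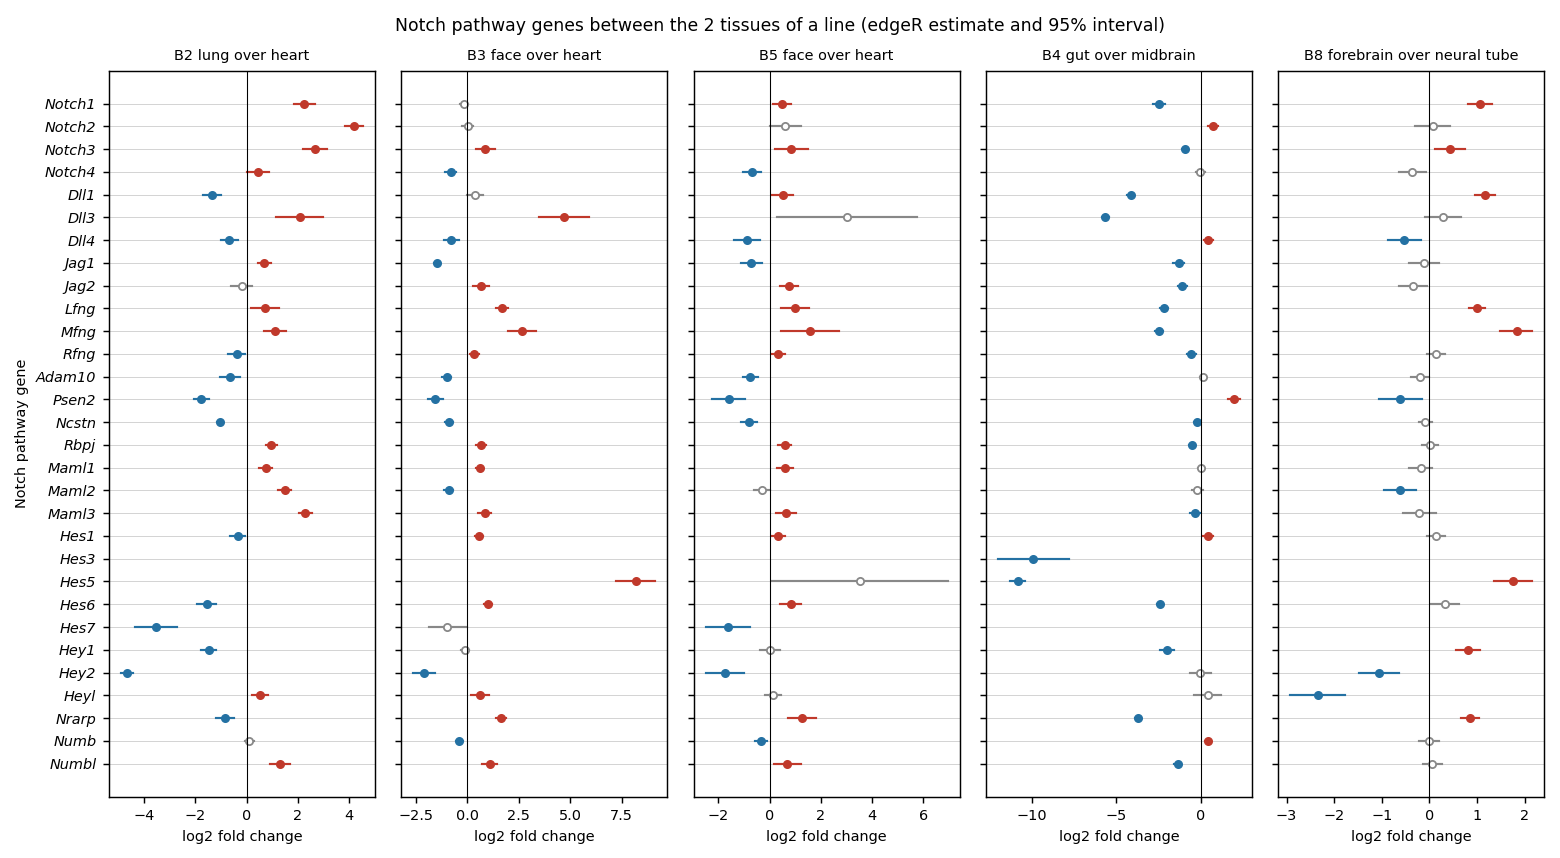
Log2 fold change of each member in the 5 within-line tissue comparisons, with 95% intervals from edgeR. Filled points passed the adjusted p of 0.05, red where higher and blue where lower in the first tissue, and members not tested have no point. In gut over midbrain most members lie below 0, Hes5 at -10.82 the lowest.

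Between gut and midbrain of B4 most members were lower in gut, among them Hes5, Dll3, Dll1 and Nrarp. Of 29 members tested, 18 were lower (31.9% of all genes) and 5 were higher (34.9%), with medians of -0.557 over members and 0.024 over all genes. Hes5 was at 0.13, 0, 0.143 and 0.0386 in the guts and 159, 156, 142 and 153 in the midbrains, with no overlap (log2 -10.82, interval -11.26 to -10.38, adjusted p 7.34e-10). Hes3 had no count in the guts, where 3 counts in a library would be a level of at most 0.0967, so that the midbrain median of 3.75 was at least 38.8-fold higher and the lowest midbrain (A39, 1.25) at least 12.9-fold higher. Dll3 (log2 -5.64), Dll1 (-4.15), Nrarp (-3.72) and Notch1 (-2.5) were lower in gut. All 3 Fringe genes and 4 of 5 ligands were among the members that were lower.

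Psen2 was the member most raised in gut. It stood at 9.88, 8.19, 6.76 and 8.68 in the guts and 2.22, 1.91, 2.37 and 2.1 in the midbrains, with no overlap (log2 1.96, interval 1.61 to 2.31, adjusted p 3.22e-06). Notch2 (0.74), Numb (0.43), Dll4 (0.42) and Hes1 (0.41) were higher by less. The last of these lost its call (adjusted p 0.0537 to 0.0777) without gut A42 or midbrain A37, A38 or A40. Without the midbrain A39 the values were -10.83 for Hes5 and 1.88 for Psen2.

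Between forebrain and neural tube of B8, Hes5, Dll1, Lfng and Mfng were higher in forebrain and Heyl in neural tube. Of 28 members tested, 8 were higher in forebrain (16.7% of all genes) and 5 lower (19.3%), with medians of 0.036 over members and 0.012 over all genes. Hes5 was at 70.8 (A29), 137, 93.2 and 90.1 in forebrain and 36.7, 29.6, 21.9 and 26.3 in neural tube, with no overlap (log2 1.76, interval 1.35 to 2.16, adjusted p 4.86e-05). Mfng (1.83), Dll1 (1.17), Notch1 (1.06), Lfng (0.99) and Nrarp (0.86) were higher in forebrain. Heyl was at 2.79, 1.25, 3.19 and 1.62 in forebrain and 11.9, 11.1, 11.2 and 10.1 in neural tube, which did not overlap (log2 -2.35, interval -2.92 to -1.77, adjusted p 7.07e-05). Hey2 (-1.06), Maml2 (-0.62), Psen2 (-0.61) and Dll4 (-0.53) were lower in forebrain. The number called lower was 3 without A32 or A36 and 7 without A29. Without A29 Hes5 was at 1.95, Mfng at 1.98 and Hey2 at -1.2.

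Homozygous and wild-type libraries were then compared to ask whether loss of a boundary went with a change in the pathway. No member was called by edgeR in any of the 14 comparisons. Of 393 member tests, 39 (9.92%) had an unadjusted p under 0.05, against 7.41% of all gene tests, and DESeq2 called 4. Over all genes edgeR called 0.00993% and DESeq2 0.641% of the tests in the 14 comparisons together. Per comparison edgeR called 0.0131% of genes in B3 face, 0.00677% in B4 midbrain, 0.0723% in B6 face, 0.0329% in B7 face and 0.0132% in B8 neural tube, and 0.0% in B2 lung, B2 heart, B3 heart, B4 gut, B5 face, B5 heart, B6 heart, B7 heart and B8 forebrain. Where 1 of 2 libraries of a group is left out below, the spread comes from the other group alone and the library that remains is assumed to vary like it. The members below are those called by DESeq2 or with an unadjusted edgeR p under 0.01. Counts of called members with other controls or a library left out are given without the share of all genes. They are therefore not read as particular to the pathway. Groups of 2 libraries often do not overlap without any effect, and the share of all genes without overlap was not worked out.

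**Figure D4:**
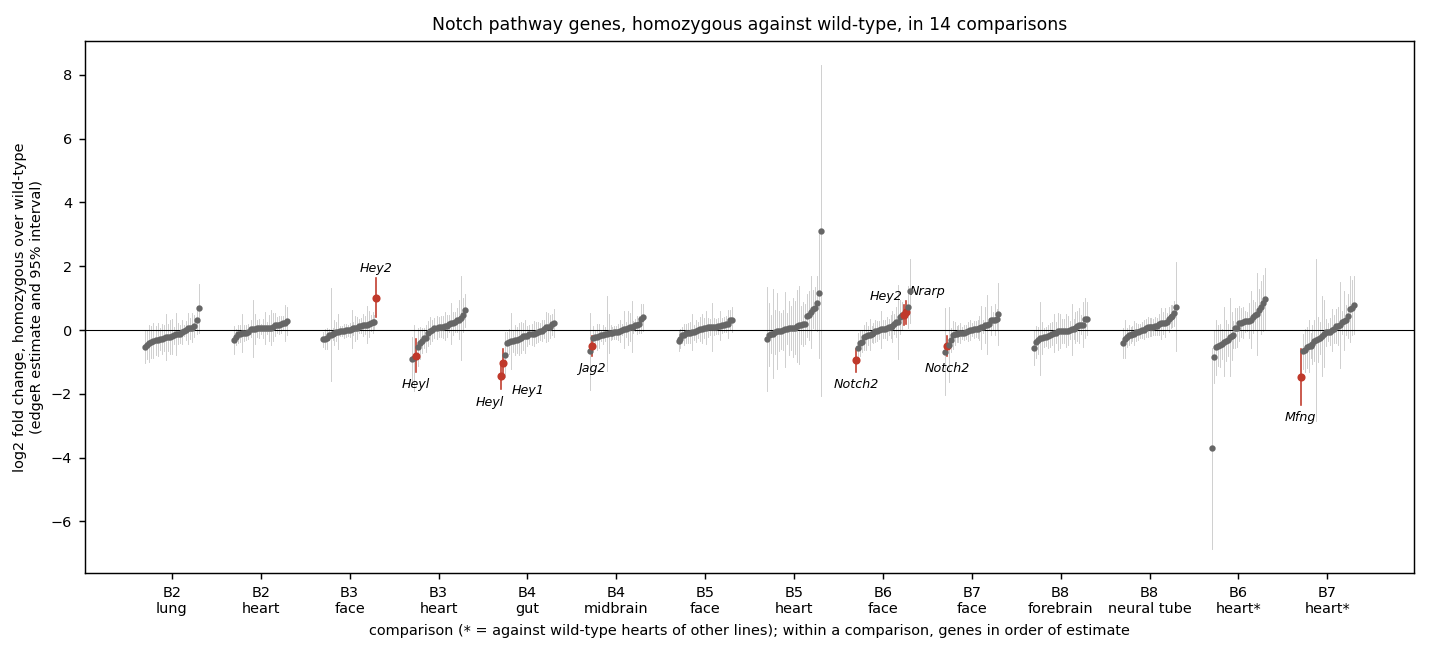
Log2 fold change (homozygous over wild-type) of each member in the 14 genotype comparisons, with 95% intervals from edgeR and members in order of their estimate. The labelled red points are the members named in the text. No member passed the adjusted p of 0.05, and the B6 and B7 hearts are set against hearts of other lines.

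In the B4 gut the levels of Heyl and Hey1, repressors found among others in vessel walls and endothelium, were lower in homozygous libraries. Heyl was at 1.85 (A41) and 2.27 (A43) in homozygous and 6.06 (A42) and 5.05 (A44) in wild-type guts, which did not overlap. Its log2 fold change was -1.44 (interval -1.86 to -1.01, adjusted p 0.115 with edgeR and 6.13e-06 with DESeq2). Hey1 was at 3.83 and 4.77 in homozygous and 9.66 and 7.93 in wild-type guts, again without overlap. Its log2 fold change was -1.04 (interval -1.48 to -0.60, adjusted p 0.23 and 0.0103). These were the 2 members that DESeq2 called there, where it called 0.596% of all genes. Of 27 members tested, 21 had a negative estimate (median -0.181, all genes 0.007).

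Marker sums of other cell types also differed between the B4 guts, with overlap between the genotypes for mural and endothelial markers. The summed level of 7 mural and smooth muscle markers was 76.6 and 112 in homozygous and 171 and 106 in wild-type guts, with all 7 lower in estimate. The sum of 5 skeletal muscle markers was 11.8 and 26.8 against 41.6 and 137, and of 10 endothelial markers 175 and 194 against 218 and 177. Liver markers were at 4690 and 3350 against 3130 and 2980. By Xist and Ddx3y, A41 read as female and the other 3 guts as male. The part of these in the Hey values was not tested. With edgeR the number of members called was 0 without A41, 1 without A43 (Heyl, adjusted p 0.0285), 1 without A42 (Heyl, 0.00787) and 3 without A44 (Heyl, Hey1 and Hey2).

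In the B6 face Notch2 was lower and Nrarp and Hey2 higher in estimate. Notch2 was at 3.7 (A5) and 2.81 (A7) in homozygous and 5.75 (A27) and 6.61 (A28) in wild-type faces, which did not overlap. In the 8 faces of B3 and B5 Notch2 ran from 3.34 to 6.39, a range that held A5 and A27 but not A7 and A28. Its log2 fold change was -0.94 (interval -1.3 to -0.58, adjusted p 0.136 with edgeR and 0.000135 with DESeq2, which called 1.08% of all genes and no other member). Nrarp was at 26.9 and 25.5 against 20 and 15.1, also without overlap (log2 0.56, interval 0.2 to 0.92, edgeR adjusted p 0.365). Hey2 was at 10.5 and 11.4 against 7.45 and 8.19 (log2 0.47, interval 0.17 to 0.78, edgeR adjusted p 0.37). Of 29 members tested, 9 had an unadjusted p under 0.05, and the median was 0.03 (all genes 0.011).

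Marker sums differed between these faces as well. The 7 mural markers were at 47.5 and 42.8 in homozygous and 66.3 and 77.8 in wild-type faces, skeletal muscle markers at 56.2 and 47.2 against 85.8 and 111, and neural progenitor markers at 272 and 321 against 260 and 200. Their part in the result was not tested. The wild-type face A28 had the lowest Hes5 of any face (5.99), against 22.8 and 31.3 in homozygous faces and 17.1 in A27. Without A27 edgeR called 6 members (Notch2, Hes5, Dll3, Nrarp, Mfng and Heyl) and without A5 it called 3 (Notch2, Notch1 and Hes5), Notch2 at adjusted p 0.00188 and 0.0016.

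In the B7 face Notch2 was lower in estimate, at 3.76 (A1) and 4.74 (A3) in homozygous and 5.41 (A25) and 6.44 (A26) in wild-type libraries. These did not overlap, but the 8 faces of B3 and B5 ran from 3.34 to 6.39 and covered nearly all of that range. The log2 fold change was -0.49 (interval -0.8 to -0.18, edgeR adjusted p 0.483). In both B6 and B7 the wild-type faces (A25 to A28) are numbered apart from the homozygous faces (A1 to A7). The labels do not say what this numbering stands for, and it cannot be told apart from genotype in these faces. The 2 homozygous faces differed from each other, Hes5 being at 29.3 in A1 and 7.67 in A3 against 21.2 and 29.2 in wild-type faces. Without A1 edgeR called 3 members (Hes5 at -1.74, Dll1 at -0.72, Jag2 at 0.57), and without A3 it called 4 (Dll3 at 1.06, Dll1 at 0.71, Nrarp at 0.51, Notch2 at -0.66), so that Dll1 changed direction with the library left out. All 5 skeletal muscle markers were lower in estimate (median log2 -0.74), with summed levels of 9.95 (A1) and 48.5 (A3) against 53.9 and 31.7, and 1 of 7 erythroid markers was called (edgeR adjusted p 0.0251). Their part in the result was not tested.

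Hey2 in the B3 face was at 9.68 (A9) and 6.13 (A11) in homozygous and 4.83 (A13) and 3 (A15) in wild-type libraries. The groups did not overlap, and the 2 libraries of each group lay far apart (log2 1.02, interval 0.40 to 1.64, adjusted p 0.503 with edgeR and 0.0648 with DESeq2). In the B3 heart Heyl was at 2.41 (A10) and 3.32 (A12) against 4.58 (A14) and 5.39 (A16), without overlap (log2 -0.8, interval -1.32 to -0.29, edgeR adjusted p 0.525). The wild-type heart A16 also carried lung markers (63.1) and epithelial markers (103), and their part was not tested. Without A14 edgeR called Notch3 there (log2 -1.26, adjusted p 0.0297). By Xist and Ddx3y the wild-type B3 libraries read as female and A11 and A12 as male.

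In the B4 midbrain Jag2 was at 3.92 (A37) and 3.79 (A39) in homozygous and 5.75 (A38) and 5.19 (A40) in wild-type libraries, without overlap (log2 -0.49, interval -0.81 to -0.18, edgeR adjusted p 0.668). Without A39 it was -0.48. Without A37, which leaves A39 as the only homozygous midbrain, edgeR called Hes3 (-1.67) and Notch2 (0.61). In the B7 heart Mfng was at 1.5 (A2) and 1.2 (A4), below the 8 wild-type hearts of other lines (2.26 to 5.43). The log2 fold change was -1.46 (interval -2.34 to -0.59, adjusted p 0.506 with edgeR and 0.0458 with DESeq2, which called 0.609% of all genes and no other member). Mfng in homozygous hearts of the other lines was at 2.48 (A6) and 1.73 (A8) in B6 and 2 (A10) and 1.86 (A12) in B3. It was at 14.6 (A21) and 3.7 (A22) in B5 and at 2.92 to 4.08 in B2. The control hearts A16 and A24 carried lung marker sums of 63.1 and 73.6. With the B2 wild-type hearts alone as controls edgeR called 16 members, with those of B5 1 (Mfng) and with those of B3 none. In the B6 heart, where no member met the rule, the same choices gave 17, 2 and none. For 10 members every B2 heart lay below every heart of the other lines except A21, and for 3 members above. The share of all genes that separate in this way was not worked out, so these counts are not read as particular to the pathway.

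**Figure D5:**
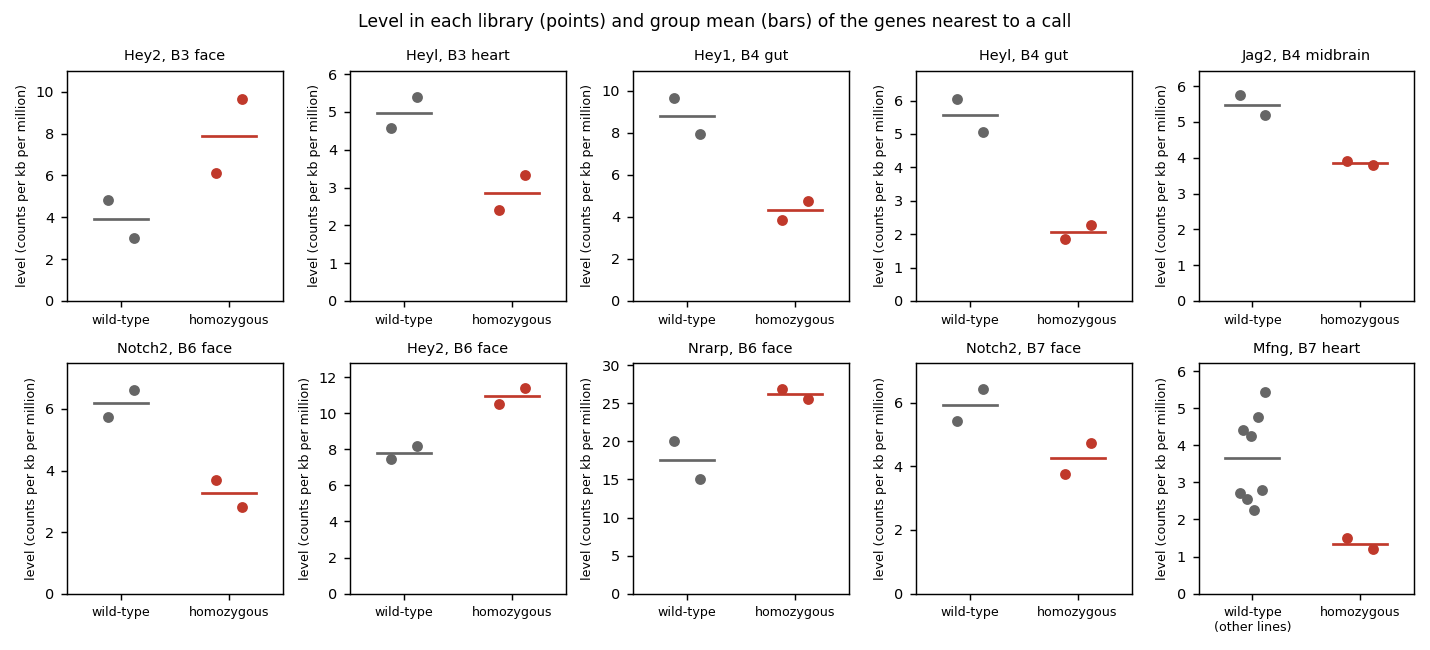
Level in each library of the 10 member and comparison pairs named in the genotype comparisons, homozygous (red) beside wild-type (grey), on the level scale defined above, with the group mean as a line. The groups do not overlap in any of the 10, which were picked for a low p. Most groups hold 2 libraries, and the share of all genes without overlap was not worked out.

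No member met the rule in the other 6 comparisons. In the B2 lung the median over 27 members was -0.189 (all genes 0.006), with 21 negative estimates, and Notch1 ran up to 24.8 in the wild-type lung E5420-07 against 7.39 to 12 in the other wild-type lungs. Without E5420-07 and E5420-09 edgeR called no member either, and more estimates were positive than negative. Notch1 was then at 0.05 (interval -0.17 to 0.26) and Notch2 at 0.12 (-0.05 to 0.29). Adam10 was at -0.17 (-0.26 to -0.07, edgeR unadjusted p 0.00207) and Dll3 at 0.96 (0.27 to 1.66, edgeR unadjusted p 0.0109). The naming rule read the main fit only. In the B2 heart 19 of 27 estimates were positive (median 0.053, all genes 0.007). In the B5 heart Hes5 did not pass the filter on low counts. Leaving out A22, so that A21 stood alone, gave 4 called members (Hes5, Dll3, Hes6 and Nrarp). In the B5 face leaving out A20 gave 1 call (Notch2, 0.61). In the B8 forebrain leaving out A29 gave 3 (Hes5 at 0.6, Hes6 at 0.49, Maml3 at -0.63), with directions that rest on the genotype labels of these 4 libraries alone, and in the B8 neural tube leaving out A35 gave 2 (Dll3 at 0.73, Hes5 at 0.59).

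Whether the genotype effect differed between the 2 tissues of a line was tested with an interaction term. edgeR called no member in B2 (0.0% of all genes), B3 (0.0311%), B4 (0.0%), B5 (0.0%) or B8 (0.0%), and 1, 4, 3, 3 and 0 members had an unadjusted p under 0.05. In B4 the effect on Hey1 was 0.87 lower in gut than in midbrain on the log2 scale (interval of the difference -1.39 to -0.34, edgeR adjusted p 1.0). In B3 and B5 the lowest unadjusted values included Hes5 (4.91 and -5.81), whose hearts held few or no counts apart from A21.

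The wider pathway was read through 48 further genes (gamma-secretase subunits, ligand ubiquitin ligases, co-repressors and others). Of them 37 of 46 tested were called between lung and heart of B2 (23 higher in lung and 14 lower, beside the 41.7% and 38.9% of all genes given above), 34 of 45 between face and heart in B3 (19 higher and 15 lower, beside 35.5% and 34.1%), 20 of 45 in B5 (12 and 8, beside 20.4% and 26.2%), 34 of 46 between gut and midbrain (11 and 23, beside 34.9% and 31.9%) and 15 of 46 between forebrain and neural tube (9 and 6, beside 16.7% and 19.3%). In the 14 genotype comparisons edgeR called none. Among the calls of DESeq2 was the convertase Furin, which cuts the Notch precursor, in B6 heart (log2 0.52, adjusted p 0.00297). It was the 1 gene called of 45 tested there. DESeq2 called 0.641% of all gene tests in the 14 comparisons together, and its share in B6 heart alone is not given here. The controls of that comparison were hearts of other lines, so line and genotype cannot be told apart for Furin. The acetyltransferase Ep300, a co-activator of the complex, was the only one of the 48 whose face to heart difference was called between B5 and B3 (0.89 higher in B5, edgeR adjusted p 0.0405).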

How the data were processed

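RNA-seq was made in 64 libraries of dissected E11.5 mouse tissue, RNA being isolated with RNeasy Mini and libraries built by a company. Per the methods, the authors mapped reads with STAR to mm10 and deposited RSEM expected counts per gencode M4 gene, with effective lengths and TPM (scaled to the same sum in each library) beside them. The strand setting of the run is not given in the sources used here. Hi-C was not analysed here.

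Expected counts were rounded to whole numbers. Entries other than Ensembl genes took at most 2.2e-05% of a library's counts and were left out, and 42462 of 43346 genes were named. Groups came from the labels. Each comparison was fitted over all genes with edgeR 4.0.16 (R 4.3.3) after filterByExpr (minimum count 10, minimum total 15), TMM and quasi-likelihood tests, with Benjamini-Hochberg adjustment, calls at 0.05 and 95% intervals. Levels used TMM over all 64 libraries and the median effective length. DESeq2 1.42.0, its size factors, no filter, a joint fit, 1 genotype alone, other controls and leaving out each library were alternatives. The scripts were tested on simulated counts. No 2 replicates of the 64 pairs held identical values (lowest chi-square per gene 6.7). The methods describe replicates as independent samples without naming embryos, and p-values measure the spread between these libraries.

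The members and lists were chosen with earlier results of these data known. Named members were those called by edgeR or DESeq2 or with an unadjusted p under 0.01 in a genotype comparison, and up to 6 called members in each direction by size in a tissue comparison. Pathway genes outside the list were read as counts. Some results among them are not reported here.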

Additional observations from a re-analysis of the deposited data

Results flagged for a closer look

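In groups of 4 to 10 libraries (B2 hearts and lungs), the gap of the highest or lowest level to its neighbour was compared with the range of the group by Dixon's ratio for 108 pairs of member and group, and 23 exceeded the 95% critical value. Chance gives about 1 in 20. In the wild-type lungs, E5420-07 was highest for Notch1 (24.8), Notch3 (63.3), Notch4 (20.2), Dll1 (2.71), Jag2 (7.85), Lfng (13.4), Rfng (22.6), Psen2 (6.72), Maml3 (8.69), Hes1 (54.7), Hes6 (51.4) and Numbl (51.1) and lowest for Rbpj (4.61), and E5420-09 was highest for Numb (23.5). The other 9 were spread over 7 libraries. In homozygous hearts, A57 was lowest for Jag2 (2.55) and Maml3 (0.695) and A53 for Lfng (2.08). In wild-type hearts, A56 was lowest for Dll4 (3.42) and A59 for Jag2 (3.02). In homozygous lungs, E5406-05 was lowest for Maml2 (5.11) and Nrarp (3.41), E5403-10 was lowest for Numbl (13.9), and E5406-06 was highest for Heyl (5.79). Values are levels, on the scale defined in the report.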

How the results depend on the processing

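No value of a named member changed sign under the alternatives run, whereas Dll1 in the B7 face, which the naming rule did not pick, did so between leaving out A1 and leaving out A3. Of the values of named members, 309 kept their side of the threshold under alternatives other than leaving out a library, 13 passed it newly and 22 no longer passed, whereas leaving out 1 library gave 621, 8 and 25. Of the counts of called members, 103 stayed within 1.5 times the main count and 22 moved, and with 1 library left out 163 and 21.

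In the genotype comparisons, where edgeR called 0 members, other settings gave calls. Without the filter on low counts there were 2 in B3 face, 2 in B4 gut, 5 in B6 face, 1 in B7 face and 1 in B8 neural tube. DESeq2 gave 2 in B4 gut, 1 in B6 face and 1 in B7 heart. The joint fit of all libraries called 7 members in B6 heart, 6 in B7 heart and 1 in B5 heart. With wild-type hearts of B2 alone there were 17 in B6 heart and 16 in B7 heart, and with those of B5 alone 2 and 1. Leaving out 1 library gave 0 to 1 in B3 heart, 0 to 3 in B4 gut, 0 to 2 in B4 midbrain, 0 to 1 in B5 face, 0 to 4 in B5 heart, 0 to 6 in B6 face, 0 to 4 in B7 face, 0 to 3 in B8 forebrain and 0 to 2 in B8 neural tube, the libraries being named beside those results and the library left alone in its group being assumed to vary like the other group. The share of all genes called in these fits, apart from those of DESeq2, is not given here, and the causes were not tested.

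With homozygous libraries alone, members called higher were 2 of the 5 in gut over midbrain and 0 of the 14 in B5 face over heart, and members called lower were 0 of the 9 in B5 and 1 of the 5 in forebrain over neural tube. With wild-type libraries alone, 7 members were lower in lung over heart (12 with both). These fits hold fewer libraries. Leaving out 1 library gave 6 to 17 members higher in B5 face over heart and 3 to 7 lower in forebrain over neural tube. On the deposited TPM, 2 members (8 on levels) were highest in heart and 1 (4 on levels) in lung. 2 alternatives without the wild-type lungs E5420-07 and E5420-09 (DESeq2 in lung and the B2 interaction) were chosen after seeing the data. With the embryo code of the B2 lung names in the model as a block, 0 members were called and 243 genes had an unadjusted p under 0.05. No paired analysis was possible because, outside the B2 lungs, the labels give the groups no shared replicate numbers. Depth limits Hes3 outside midbrain, Hes5 and Dll3 in most hearts, lungs and guts, and Hes7 in every tissue.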
